A study of Homo sapiens with 6 samples.

Results

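The ncRNA-a7 siRNA arrays of A549 cells were set directly against the Snai1 siRNA arrays, 2 arrays in each group, 4 of the 6 arrays of the study. Arrays were chosen by their labelled siRNA alone. Probes with 1 gene symbol numbered 28044 of 48701, for 18833 genes. After a brightness filter 13086 of these genes were tested, along with 6670 probes without a single symbol. A549 is a human lung adenocarcinoma line. All cells were grown in DMEM with 10% FCS and transfected, and the groups were ncRNA-a7 siRNA (replicates 1 and 2), Snai1 siRNA (replicates 1 and 2) and control siRNA (replicates 1 and 2). Total RNA was labelled with biotin and read on a single-colour bead array. Neither the number of siRNAs used per target nor the time after transfection is given in the sources used here. The labels do not state whether replicates were separate transfections. The spread behind each p-value is thus that of these arrays and may be technical.

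SNAI1 (Snail) is a zinc finger transcription factor. It binds E-box sequences and is best known for repressing CDH1, the E-cadherin gene, when epithelial cells take on mesenchymal traits. ncRNA-a7 is a long noncoding RNA whose gene lies near SNAI1, and it has been described as a positive regulator of SNAI1 transcription. An siRNA guides cleavage of an RNA that pairs with it. The comparison asks which genes differ between the 2 knockdowns. The control arrays did not enter it and are given only to place the values.

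Mean signal per array ran from 806.3 to 856.9 with ncRNA-a7 siRNA and from 715.2 to 901.9 with Snai1 siRNA. Arrays of 1 group correlated at 0.9914 (ncRNA-a7 siRNA) and 0.9919 (Snai1 siRNA) over log2 signals, and arrays of different groups at 0.9872 to 0.9892. The median absolute difference between replicates was 0.138 on the log2 scale with ncRNA-a7 siRNA and 0.121 with Snai1 siRNA. Markers of epithelial cells ranged in brightness. KRT8, a simple epithelial keratin, lay at percentiles 99.2 to 99.5 of all probes and CDH1 at 96.7 to 97.0. KRT18 lay at 65.3 to 68.4 and KRT19 at 73.3 to 73.8. The brightness filter was passed by 10 of 13 keratins and 17 of 23 epithelial junction genes. Lung markers were mostly dim, with 12 of 18 below the brightness filter, NKX2-1 and SFTPC among them. The summed linear signal of 12 leukocyte markers was 3442 and 3996 with ncRNA-a7 siRNA and 4144 and 4551 with Snai1 siRNA. The filter was passed by 8 of the 12, while CD3D, CD3E and HLA-DRA were below it. The 10 fibroblast markers summed to 1114 and 1124 with ncRNA-a7 siRNA and 1222 and 1266 with Snai1 siRNA. Of these 4 passed the filter, while COL1A2 and COL3A1 were below it. The 10 endothelial markers summed to 1074 and 1142 with ncRNA-a7 siRNA and 1196 and 1277 with Snai1 siRNA. Of these 6 passed the filter, while CDH5 and VWF were below it. LUM, a fibroblast gene, lay at percentiles 77.6 to 80.8 of all probes and PECAM1, an endothelial gene, at 69.5 to 72.6. Passing the filter does not show expression, since it is set at the median brightness and no detection values are given. The part of these levels in the differences below was not tested.

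The probes taken for both siRNA targets were dim on these arrays. The SNAI1 probe gave a linear signal of 138.8 and 146.5 with ncRNA-a7 siRNA, against 127.5 and 127.3 with Snai1 siRNA and 142.7 and 144.2 with control siRNA. The TRERNA1 probe, taken here for ncRNA-a7 although the labels give no gene symbol, gave 129.7 and 132.5 with ncRNA-a7 siRNA, against 142.7 and 128.6 with Snai1 siRNA and 117.9 and 117.8 with control siRNA. Both probes lay among the dim probes left out of the test, at percentiles 15.9 to 48.0 (SNAI1) and 3.95 to 39.5 (TRERNA1). With no filter, the difference was 0.25 ± 0.14 SE for SNAI1 (limma adjusted p = 0.53) and -0.08 ± 0.15 for TRERNA1 (adjusted p = 0.88). The SNAI1 probe read lowest on the Snai1 siRNA arrays, but neither siRNA was tested against control siRNA here. Whether either target fell is therefore not shown by this comparison.

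Called differences between the 2 knockdowns ran from 1.37-fold to 3.46-fold among named genes, with a median of 1.53-fold. After ncRNA-a7 siRNA the keratin KRT80, the annexin partner S100A10, the haem enzyme UROD and the dynein regulator PAFAH1B1 were among the genes that stood highest above Snai1 siRNA. The torsin activator gene TOR1AIP2, the proteoglycan SDC4 and the translation repressor EIF4EBP2 were among those that stood lowest. A feature (a gene on its brightest probe, or a probe without a gene name) was called when limma, fitted to the 4 arrays, gave it an adjusted p (Benjamini-Hochberg, over 19756 features) under 0.05. Called features numbered 1113, which is 5.63% of those tested, with 659 higher (3.34%) and 454 lower (2.3%) with ncRNA-a7 siRNA. Among 13086 named genes 927 were called, 545 higher and 382 lower, and among 6670 unnamed probes 186. The share called was thus larger among named genes than over all features. The gene lists below hold named genes alone, so a list share slightly above 5.63% is not above that of named genes. A difference of at least 2-fold was reached by 48 named genes higher and 24 lower. With median scaling of the arrays in place of quantile normalization, 376 features were called higher and 161 lower, so that 70.0% of calls were higher against 59.2%. All 1113 called features had arrays that did not overlap between the groups, as did 50.9% of all features tested. Leaving out the first ncRNA-a7 siRNA array lowered the number called to 135, leaving out the second to 411, and leaving out Snai1 siRNA replicate 2 lowered it to 440. Without Snai1 siRNA replicate 1 it was 778, with 500 higher and 278 lower. In all 4 fits that left out 1 array, 116 features stayed called, 102 of them named. Gene lists of pathways and cell types held 119 called genes, of which 23 stayed called in all 4 of these fits and 34 in none. A call on a list member below was lost without at least 1 array unless it is said to have stayed. Lists were chosen with earlier results of these data known, and some hold a gene of the largest differences. Their shares are thus not independent of these data, and the median share called over the 51 lists was 10%.

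**Figure D1:**
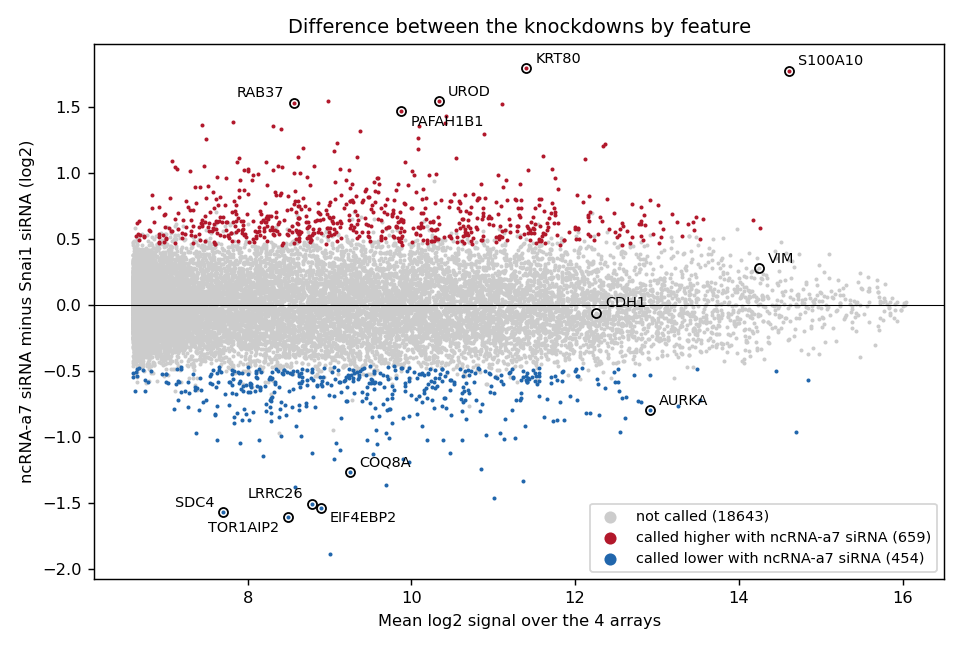
Difference between ncRNA-a7 siRNA and Snai1 siRNA (log2, vertical axis) against the mean log2 signal over the 4 arrays (horizontal axis), with 1 point per feature. Red points were called higher with ncRNA-a7 siRNA (659) and blue points lower (454), grey points were not called, and ringed points are labelled by gene. S100A10 is the bright gene at 1.77, while CDH1 (-0.06) and VIM (0.28) lie in the grey band.

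Among structural and membrane genes, KRT80, a type II epithelial keratin, had log2 signals of 12.27 and 12.32 with ncRNA-a7 siRNA, against 10.31 and 10.70 with Snai1 siRNA, with 11.27 and 11.33 on the control arrays. It was 3.46-fold higher with ncRNA-a7 siRNA (limma log2 difference 1.79 ± 0.14 SE with 2 arrays per group, adjusted p = 0.000362). The control arrays lay between the groups. S100A10, which binds annexin A2 at the plasma membrane, read 15.45 and 15.54 with ncRNA-a7 siRNA, against 13.62 and 13.82 with Snai1 siRNA and 14.80 and 14.87 with control siRNA, and was 3.42-fold higher (limma adjusted p = 0.000362). It is among the brightest genes of the arrays, and its other probe differed by 1.82. ANXA13, an annexin of epithelial cells, read 9.06 and 9.10 with ncRNA-a7 siRNA, against 7.70 and 7.79 with Snai1 siRNA and 7.95 and 7.88 with control siRNA. Here the control arrays lay close to Snai1 siRNA, and the difference was 1.33 ± 0.12 SE (limma adjusted p = 0.000612). KCNJ16, an inwardly rectifying potassium channel subunit, read 8.52 and 8.51 with ncRNA-a7 siRNA, against 7.22 and 7.03 with Snai1 siRNA and 7.49 and 7.38 with control siRNA. Its call rests on 1 probe, since its other kept probe differed by 0.04.

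UROD, the fifth enzyme of haem synthesis, read 10.97 and 11.25 with ncRNA-a7 siRNA, against 9.46 and 9.67 with Snai1 siRNA and 10.57 and 10.73 with control siRNA (2.91-fold higher, limma adjusted p = 0.000626). B4GALT7, the galactosyltransferase that builds the linker between glycosaminoglycan chains and their core proteins, read 9.85 and 9.67 with ncRNA-a7 siRNA, against 8.26 and 8.17 with Snai1 siRNA and 9.55 and 9.45 with control siRNA (2.91-fold higher, limma adjusted p = 0.000362). PAFAH1B1, which encodes the dynein regulator LIS1, read 10.67 and 10.55 with ncRNA-a7 siRNA, against 9.12 and 9.17 with Snai1 siRNA and 10.29 and 10.11 with control siRNA (2.76-fold higher, limma adjusted p = 0.000362). For these 3 genes the control arrays lay nearer ncRNA-a7 siRNA, and the Snai1 siRNA arrays were the low ones. RAB37, a small GTPase of secretory vesicles, was the exception among the 15 largest rises. It read 9.26 and 9.40 with ncRNA-a7 siRNA, against 7.83 and 7.76 with Snai1 siRNA and 6.87 and 7.22 with control siRNA, so the control arrays lay below both groups. It was 2.89-fold higher (limma adjusted p = 0.000362), while its 3 other kept probes differed by 0.74, 0.59 and -0.02. PRTFDC1, a relative of the purine salvage enzyme HPRT1, was 2.70-fold higher, and NETO2, an auxiliary subunit of kainate receptors, 2.61-fold higher. The other 5 of the 15 were ARHGAP26, IFNAR1, BMPR2, ARL2BP and DENND5B, at 2.41-fold to 2.57-fold.

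TOR1AIP2, whose product LULL1 activates the ATPase torsin A in the endoplasmic reticulum, was the named gene with the largest fall. It read 7.74 and 7.65 with ncRNA-a7 siRNA, against 9.25 and 9.34 with Snai1 siRNA and 9.20 and 8.95 with control siRNA (3.04-fold lower, limma adjusted p = 0.000362). Of its 2 other kept probes 1 differed by -1.92 and the other by 0.10. SDC4, a heparan sulfate proteoglycan of focal adhesions, read 6.82 and 7.01 with ncRNA-a7 siRNA, against 8.52 and 8.45 with Snai1 siRNA and 7.64 and 7.71 with control siRNA (2.97-fold lower, limma adjusted p = 0.000362). Its control arrays lay about midway. EIF4EBP2, which binds the cap-binding protein eIF4E and holds back translation initiation, read 8.17 and 8.09 with ncRNA-a7 siRNA, against 9.60 and 9.72 with Snai1 siRNA and 9.48 and 9.42 with control siRNA (2.89-fold lower, limma adjusted p = 0.000362). Here, as for TOR1AIP2, the ncRNA-a7 siRNA arrays were the ones that stood apart. RBBP4, a histone-binding subunit of several chromatin complexes, read 7.91 and 7.88 with ncRNA-a7 siRNA, against 9.21 and 9.33 with Snai1 siRNA and 9.02 and 9.21 with control siRNA. It was 2.59-fold lower (limma adjusted p = 0.00055), but its other kept probe differed by only -0.22. COQ8A, an atypical kinase of coenzyme Q synthesis, read 8.64 and 8.60 with ncRNA-a7 siRNA, against 9.89 and 9.88 with Snai1 siRNA and 9.79 and 9.90 with control siRNA (2.40-fold lower, limma adjusted p = 0.000669). CELF1, an RNA-binding regulator of splicing and decay, was 2.56-fold lower, PPP2R5A, a regulatory subunit of protein phosphatase 2A, 2.24-fold lower and EXTL3, an exostosin-like enzyme of heparan sulfate synthesis, 2.06-fold lower. GXYLT1, NEMP1, BTBD10, BICRA, CAPZA1 and ARHGAP19 were 2.07-fold to 2.24-fold lower. Each of the 15 largest rises and 15 largest falls stayed called without any 1 array.

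**Figure D2:**
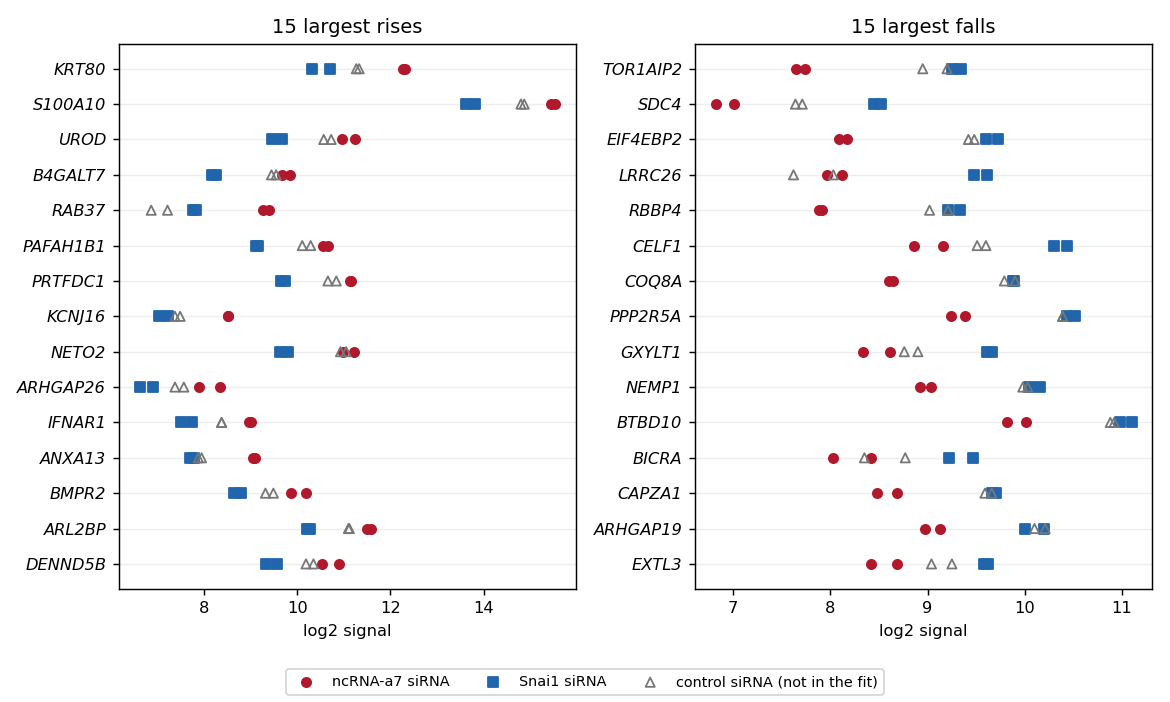
Log2 signal (horizontal axis) on each array for the 15 largest rises (left) and the 15 largest falls (right) among called named genes. Red circles are ncRNA-a7 siRNA, blue squares Snai1 siRNA and open grey triangles control siRNA, which did not enter the fit; each symbol is 1 array. In 11 of the 15 rises the control mean lies nearer the ncRNA-a7 siRNA mean, and in 10 of the 15 falls nearer the Snai1 siRNA mean.

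The position of the control arrays differed among the genes. Of the 15 largest rises, the control mean lay nearer ncRNA-a7 siRNA in 11 and nearer Snai1 siRNA in 4. Of the 15 largest falls, it lay nearer ncRNA-a7 siRNA in 5 and nearer Snai1 siRNA in 10. Among all 48 named genes called at least 2-fold higher the numbers were 30 and 18, and among the 24 called at least 2-fold lower 8 and 16. Over all 927 called named genes it was nearer ncRNA-a7 siRNA in 453 and nearer Snai1 siRNA in 474 (51.1%), beside 51.3% nearer Snai1 siRNA over all 13086 named genes tested. It lay between both group means in 628 of the 927, and in 4312 of the 13086. These are counts with no test.

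LRRC26, an auxiliary subunit of large-conductance potassium channels, differed from most of these falls in where control lay. It read 8.12 and 7.96 with ncRNA-a7 siRNA, against 9.61 and 9.48 with Snai1 siRNA and 7.62 and 8.03 with control siRNA. The Snai1 siRNA arrays were high, and the ncRNA-a7 siRNA and control arrays overlapped. Its level was 2.84-fold lower with ncRNA-a7 siRNA (limma log2 difference -1.50 ± 0.12 SE, adjusted p = 0.000362), and its other kept probe differed by -1.37. SNAI1 is known to bind the E-boxes CACCTG and CAGGTG, which are the same motif read on opposite strands, so the RefSeq windows from 250 bases before to 50 bases after each gene start were searched for both. LRRC26 held 2 in its window, at 229 and 102 bases before the start. GXYLT1, also among the 15 largest falls, held 1 at 183 bases, and ARHGAP26, among the 15 largest rises, held 1 at 22 bases before 1 of its 2 starts. A window was found for 11 of the 15 largest rises, of which 1 held a motif, and for 14 of the 15 largest falls, of which 2 did. GXYLT1 read 8.61 and 8.34 with ncRNA-a7 siRNA, against 9.61 and 9.66 with Snai1 siRNA and 8.76 and 8.90 with control siRNA, with the Snai1 siRNA arrays above control. ARHGAP26 read 8.35 and 7.89 with ncRNA-a7 siRNA, against 6.90 and 6.62 with Snai1 siRNA and 7.38 and 7.57 with control siRNA, with the Snai1 siRNA arrays below control. The 3 genes with a motif did not lie to one side of control on the Snai1 siRNA arrays. The 250 bases before the start of the 3 genes are shown 5′ to 3′ on the gene's strand in assembly GRCh38.p14, from RefSeq, with the E-boxes in capitals.
LRRC26 (chr9:137170052-137170301, minus strand): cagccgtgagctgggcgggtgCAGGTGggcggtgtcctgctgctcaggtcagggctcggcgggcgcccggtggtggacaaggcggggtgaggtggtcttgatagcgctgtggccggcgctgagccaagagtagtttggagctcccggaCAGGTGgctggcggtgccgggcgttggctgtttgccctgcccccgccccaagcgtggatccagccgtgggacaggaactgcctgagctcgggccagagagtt
GXYLT1 (chr12:42144875-42145124, minus strand): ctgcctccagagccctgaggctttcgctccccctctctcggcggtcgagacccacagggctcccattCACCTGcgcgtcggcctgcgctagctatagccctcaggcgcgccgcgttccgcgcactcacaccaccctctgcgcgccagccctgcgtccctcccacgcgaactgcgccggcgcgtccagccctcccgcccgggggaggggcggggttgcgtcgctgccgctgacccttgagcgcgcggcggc
ARHGAP26 (chr5:142770977-142771226, plus strand): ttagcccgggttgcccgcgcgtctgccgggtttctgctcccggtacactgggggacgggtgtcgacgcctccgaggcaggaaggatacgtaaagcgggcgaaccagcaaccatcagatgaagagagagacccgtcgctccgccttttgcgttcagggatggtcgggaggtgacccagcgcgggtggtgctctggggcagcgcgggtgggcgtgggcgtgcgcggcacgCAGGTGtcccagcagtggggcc

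The share of called genes with an E-box lay near that of all genes tested. A window was found for 451 named genes called higher, of which 113 (25.1%) held either motif. Of 311 called lower 71 (22.8%) did, and of 10602 named genes tested with a window 2538 (23.9%). Over all 27305 genes of the table the share was 24.1%, and over its 35116 windows 20.6%. A match is a description of these letters and not a binding site. AURKA, CDH1, KRT80 and SNAI1 had no entry in the table.

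AURKA, the mitotic kinase Aurora A, read 12.51 and 12.52 with ncRNA-a7 siRNA, against 13.30 and 13.31 with Snai1 siRNA and 13.20 and 13.11 with control siRNA. The ncRNA-a7 siRNA arrays were low, and the control arrays lay close to Snai1 siRNA. AURKA was 1.73-fold lower (difference -0.79 ± 0.12 SE, limma adjusted p = 0.00589), its other probe differed by -0.83, and the call was lost without ncRNA-a7 siRNA replicate 1 (adjusted p = 0.0593). Of 19 genes of AURKA and its spindle partners 3 fell and 0 rose, 15.8% of the list beside 5.63% of all features called and 2.3% called lower. The list median was -0.12 beside -0.01 over all features. The others were INCENP and AURKB, subunits of the chromosomal passenger complex, with differences of -0.60 (limma adjusted p = 0.0264) and -0.47 (adjusted p = 0.0445). INCENP's other kept probe differed by 0.01, and its call was lost with the mean of a gene's probes (difference -0.29). Neither stayed called in every fit that left out 1 array, and AURKB lost the call whichever array was left out. Of 46 genes of G2/M and mitosis, AURKA and AURKB were the 2 that passed the test, 4.35% beside 5.63% of all features.

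Genes tied to the epithelial to mesenchymal transition were read one by one. CDH1 read 12.22 and 12.23 with ncRNA-a7 siRNA, against 12.33 and 12.24 with Snai1 siRNA, both above the control arrays at 11.50 and 11.50. The difference was -0.06 with a 95% interval from -0.32 to 0.21 (limma adjusted p = 0.831). VIM, the intermediate filament of mesenchymal cells, read 14.43 and 14.35 with ncRNA-a7 siRNA, against 14.08 and 14.14 with Snai1 siRNA and 14.04 and 14.07 with control siRNA (difference 0.28, interval 0.02 to 0.54, adjusted p = 0.209). The arrays of both groups did not overlap for VIM, yet the difference did not pass the test. Of 11 tested genes reported as repressed by SNAI1, 0 passed the test by limma and 2 had an unadjusted p under 0.05, with 3 differences above 0 and 8 below and a median of -0.15. Of 9 other transcription factors of the transition 0 passed it, with 2 at an unadjusted p under 0.05. With 5.63% of all features called, a count of 0 in lists of this size is near the background. The largest difference of the SNAI1 repressed list was that of DSC2, desmocollin-2, at -0.97 (interval -1.57 to -0.37, limma adjusted p = 0.066). It read 7.35 and 8.44 with ncRNA-a7 siRNA, against 8.75 and 8.98 with Snai1 siRNA and 8.27 and 8.18 with control siRNA, with its ncRNA-a7 siRNA replicates far apart. CDH2, N-cadherin, differed by -0.10 (interval -0.36 to 0.16) and the receptor kinase AXL by -0.01 (interval -0.28 to 0.26). CLDN2, a pore-forming claudin, read 11.89 and 11.92 with ncRNA-a7 siRNA, against 11.44 and 11.52 with Snai1 siRNA and 8.45 and 8.57 with control siRNA. Its groups did not overlap, and its difference of 0.42 (interval 0.16 to 0.68) missed the threshold (limma adjusted p = 0.0662). EPCAM, an epithelial adhesion molecule, differed by -0.52 (interval -0.87 to -0.17, adjusted p = 0.0853).

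Adhesion genes were called in both directions. Of 17 mesenchymal markers CD44, the hyaluronan receptor, was the 1 that rose (1.73-fold, limma adjusted p = 0.00813), 5.88% of the list beside 5.63% of all features. Of 26 integrin and laminin genes with their partners FERMT2, the integrin activator kindlin-2, was the 1 that fell (log2 difference -0.53), 3.85% of the list. Of 17 epithelial junction genes TJP1, the tight junction scaffold ZO-1, was the 1 that fell (-0.50), 5.88% of the list. Of 15 desmosome and hemidesmosome genes PKP4 (0.53) and PPL (0.47) rose and PLEC fell (-0.56), 20% of the list. Of 10 keratins KRT80 and KRT7 rose, 20% of the list, KRT7 reading 13.14 and 13.22 with ncRNA-a7 siRNA, against 12.46 and 12.53 with Snai1 siRNA. The keratin median was -0.12, with 3 differences above 0 and 7 below. Of 18 urokinase and matrix protease genes the metalloproteinases MMP7 (1.57-fold) and MMP24 (1.67-fold) rose, 11.1% of the list. Of all these calls KRT80 alone stayed in every fit that left out 1 array.

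Among the lists with the largest share called were the replication-dependent histones, of which 5 of 17 rose and 0 fell, 29.4% beside 5.63% of all features. The list median was 0.23, with 13 differences above 0 and 4 below. H2AC6 read 8.14 and 8.09 with ncRNA-a7 siRNA, against 7.15 and 7.14 with Snai1 siRNA and 7.51 and 7.42 with control siRNA (1.95-fold higher, limma adjusted p = 0.00239). H2BC5 read 10.67 and 10.93 with ncRNA-a7 siRNA, against 9.69 and 9.93 with Snai1 siRNA and 9.83 and 9.85 with control siRNA (1.99-fold higher, adjusted p = 0.00494). Both stayed called without any 1 array. H1-2, H2AC18 and H2BC21 were 1.55-fold to 1.63-fold higher, and each lost its call without at least 1 array. Because histone genes are nearly identical to each other, a probe's values may be shared by several copies and are uncertain. SLBP, which binds the stem-loop of histone messages in place of a poly(A) tail, fell (10.89 and 11.07 with ncRNA-a7 siRNA, against 11.74 and 11.63 with Snai1 siRNA, limma adjusted p = 0.0131), a call lost without ncRNA-a7 siRNA replicate 1 (adjusted p = 0.10). SLBP is 1 of 46 G1/S and DNA replication genes, of which 5 fell and 1 rose, 13% of the list. Beside RBBP4 and SLBP the falls were FEN1, the flap endonuclease (-0.56), UHRF1 (-0.49) and POLD3 (-0.48), and the rise was RRM2, a ribonucleotide reductase subunit (0.61). The list median was -0.19, with 36 differences below 0 and 10 above, and RBBP4 alone of the 6 stayed called without any 1 array.

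**Figure D3:**
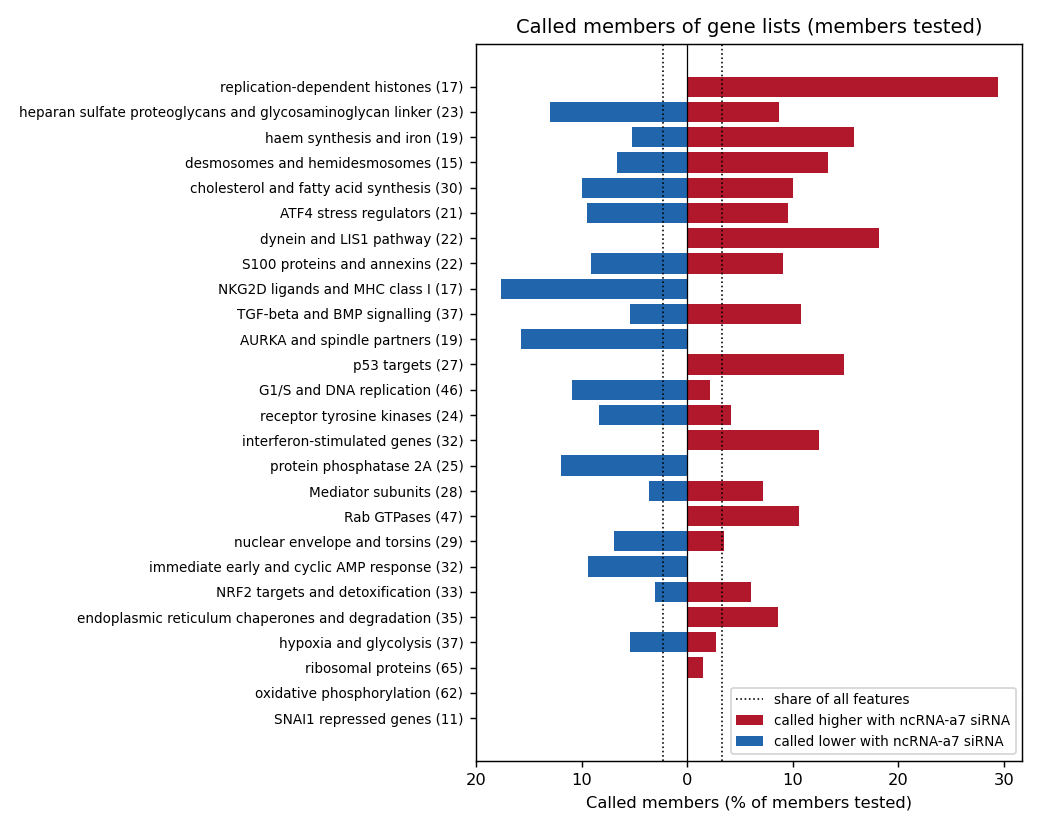
Share of tested members called higher (red, to the right of 0) or lower (blue, to the left of 0) with ncRNA-a7 siRNA, in percent, for lists with at least 10 tested members and 3 calls, plus the SNAI1 repressed, oxidative phosphorylation and ribosomal lists; the number tested is in brackets. Dotted lines mark the shares over all features, named genes and unnamed probes together, 3.34% higher and 2.3% lower. Histones lead with 5 of 17 higher, and SNAI1 repressed genes and oxidative phosphorylation have 0 called.

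Heparan sulfate genes were called in both directions. Of 23 proteoglycan and linker genes 2 rose and 3 fell, 21.7% of the list beside 5.63% of all features, with a median of -0.03. The rises were B4GALT7 and B3GALT6, which add the first and the second galactose of the same linker. B3GALT6 read 9.31 and 9.10 with ncRNA-a7 siRNA, against 8.07 and 8.40 with Snai1 siRNA and 9.08 and 8.85 with control siRNA (1.96-fold higher, limma adjusted p = 0.00656). As for B4GALT7, the Snai1 siRNA arrays were the low ones. The falls were the core proteins SDC4 and SDC1 and the synthetic enzyme EXTL3. SDC1, syndecan-1, read 10.82 and 10.81 with ncRNA-a7 siRNA, against 11.34 and 11.44 with Snai1 siRNA and 11.32 and 11.07 with control siRNA (limma adjusted p = 0.0237). B4GALT7, SDC4 and EXTL3 stayed called without any 1 array. B3GALT6 (adjusted p up to 0.0788) and SDC1 (up to 0.144) did not.

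Of 19 haem and iron genes UROD, UROS and ABCB6 rose and SLC11A2 fell, 21.1% of the list beside 5.63% of all features. The list median was -0.02, with 8 differences above 0 and 11 below. UROS, the enzyme that acts just before UROD, read 11.67 and 11.46 with ncRNA-a7 siRNA, against 10.89 and 10.65 with Snai1 siRNA and 10.98 and 10.52 with control siRNA (1.74-fold higher, limma adjusted p = 0.0105). Its control arrays overlapped the Snai1 siRNA arrays, unlike those of UROD. ABCB6, a porphyrin transporter, was 1.55-fold higher and SLC11A2, the iron importer DMT1, differed by -0.58. The dynein and LIS1 list was chosen with earlier results of these data known and holds PAFAH1B1, so its share is not independent of them. Of 22 dynein and LIS1 genes 4 rose and 0 fell, 18.2% of the list, with a median of 0.08. They were PAFAH1B1, the cargo adaptor BICD2 (11.08 and 11.06 with ncRNA-a7 siRNA, against 10.14 and 10.33 with Snai1 siRNA, with control siRNA close to ncRNA-a7 siRNA) and the dynactin subunits DCTN3 (0.60) and DCTN2 (0.52). NDEL1 and NDE1, which bind LIS1, differed by 0.33 and 0.10 and did not pass the test. Of 47 Rab GTPases 5 rose and 0 fell, 10.6% of the list beside 5.63% of all features. RAB37 was ahead of RAB1B (1.62-fold), RAB26 (1.56-fold) and RAB15 (1.54-fold). The fifth, RAB36, read 7.21 and 7.13 with ncRNA-a7 siRNA and 6.57 and 6.52 with Snai1 siRNA, where its mean lay below the filter level of 6.60, so it passed the filter through the group where it was high. In these 3 lists UROD, PAFAH1B1 and RAB37 were the calls that stayed without any 1 array.

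**Figure D4:**
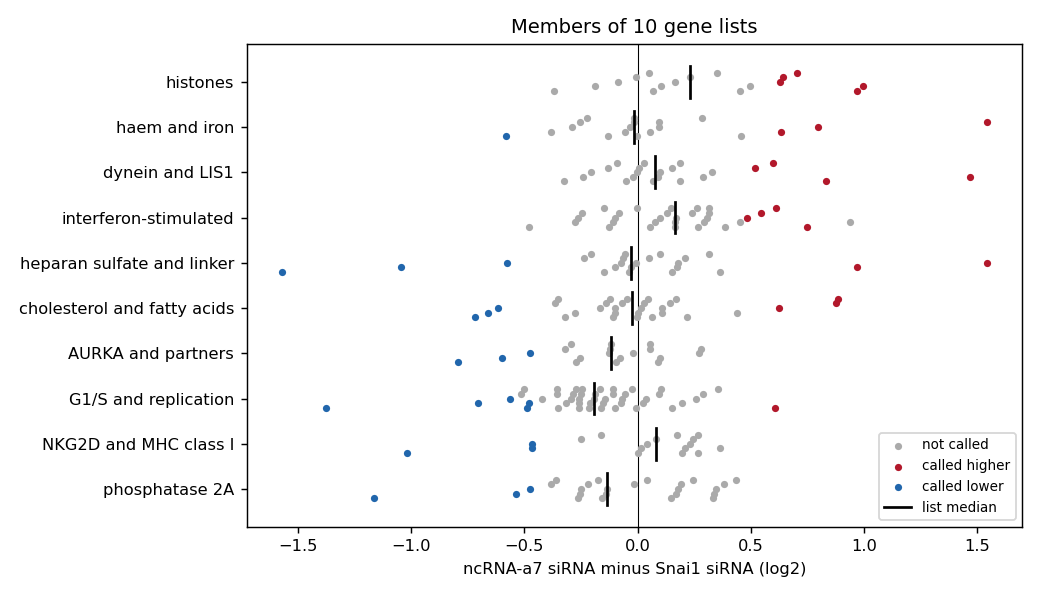
Difference between ncRNA-a7 siRNA and Snai1 siRNA (log2, horizontal axis) for every tested member of 10 gene lists (vertical axis, spread for visibility). Red points were called higher, blue lower and grey not called, and the black bar is the list median. The histone median is at 0.23 and the G1/S median at -0.19, while the heparan sulfate list has calls on both sides of a median of -0.03.

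Interferon-stimulated genes were called higher in 4 of 32 cases and lower in 0, 12.5% of the list beside 5.63% of all features called and 3.34% called higher. The list median was 0.17, with 22 differences above 0 and 10 below. OAS3, a sensor of double-stranded RNA, read 10.73 and 10.94 with ncRNA-a7 siRNA, against 10.18 and 9.99 with Snai1 siRNA and 10.25 and 10.35 with control siRNA (1.68-fold higher, limma adjusted p = 0.0127). HERC6, IFI35 and IFIT3 were 1.40-fold to 1.53-fold higher. None of the 4 stayed called in every fit that left out 1 array, and IFI35 and IFIT3 lost the call whichever array was left out. IFI6 read 10.30 and 11.19 with ncRNA-a7 siRNA, against 10.10 and 9.52 with Snai1 siRNA and 9.25 and 9.33 with control siRNA. Its replicates lay far apart, and its difference of 0.94 did not pass the test (limma adjusted p = 0.0639). IFNAR1, a subunit of the type I interferon receptor, read 8.96 and 9.01 with ncRNA-a7 siRNA, against 7.51 and 7.74 with Snai1 siRNA and 8.38 and 8.38 with control siRNA. Of 17 genes of NKG2D ligands and MHC class I 3 fell and 0 rose, 17.6% of the list, though the list median was 0.08. MICB, a stress ligand of natural killer cells, read 9.63 and 9.74 with ncRNA-a7 siRNA, against 10.62 and 10.78 with Snai1 siRNA and 10.52 and 10.38 with control siRNA (2.02-fold lower, limma adjusted p = 0.00239), and stayed called without any 1 array. ULBP1 and the peptide transporter TAP2 differed by -0.47 each, and both lost the call whichever array was left out.

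Signalling genes held several single calls. Of 37 TGF-beta and BMP genes 4 rose and 2 fell, 16.2% of the list beside 5.63% of all features, with a median of -0.03. BMPR2, the type II BMP receptor, read 9.86 and 10.20 with ncRNA-a7 siRNA, against 8.65 and 8.79 with Snai1 siRNA and 9.49 and 9.32 with control siRNA (2.49-fold higher, limma adjusted p = 0.00153), and its other probe differed by 1.32. CCN2, a matricellular protein induced by TGF-beta, read 11.61 and 11.64 with ncRNA-a7 siRNA, against 10.56 and 10.79 with Snai1 siRNA and 10.70 and 10.85 with control siRNA (1.93-fold higher, adjusted p = 0.00389). The inhibitory SMAD6 (1.73-fold) and the receptor TGFBR2 (1.54-fold) also rose, and ID4 (-0.64) and BMP7 (-0.62) fell. BMPR2 alone of the 6 stayed called without any 1 array. Of 24 receptor tyrosine kinases ROR1, a Wnt5a receptor, rose (9.05 and 9.31 with ncRNA-a7 siRNA, against 8.08 and 8.03 with Snai1 siRNA and 8.05 and 8.01 with control siRNA), while EGFR (-0.71) and ROR2 (-0.47) fell, 12.5% of the list beside 5.63% of all features. ROR2 was dim, at 6.42 and 6.46 with ncRNA-a7 siRNA and 6.84 and 6.99 with Snai1 siRNA. Its ncRNA-a7 siRNA mean lay below the filter level of 6.60, so it passed the filter through the group where it was high, and it lost its call under 11 of 15 alternatives. In all, 28 of the 1113 called features had a mean below that level in 1 group. ROR1 stayed called without any 1 array. Of 32 immediate early genes the phosphatase DUSP1 (-0.86), CITED2 (-0.52) and KLF4 (-0.49) fell and 0 rose, 9.38% of the list. Of 29 NF-kappaB and cytokine genes LIF rose (0.59) and CCL20 fell (-0.79), 6.90% of the list, the CCL20 call staying without any 1 array.

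Stress, translation and metabolic genes were mixed. EIF2S1, the alpha subunit of the initiation factor eIF2, read 10.04 and 10.08 with ncRNA-a7 siRNA, against 9.10 and 9.08 with Snai1 siRNA and 10.13 and 10.03 with control siRNA (1.95-fold higher, limma adjusted p = 0.00239). The Snai1 siRNA arrays were low and the ncRNA-a7 siRNA arrays overlapped control. EIF2S1 and GDF15 (0.50) rose among 21 ATF4 stress regulators, and STC2, a secreted glycoprotein, was 1 of the 2 that fell, with 19% of the list called. STC2 read 7.44 and 7.36 with ncRNA-a7 siRNA, against 8.09 and 8.21 with Snai1 siRNA and 10.08 and 9.95 with control siRNA. STC2 thus read below the control arrays in both groups, lower with ncRNA-a7 siRNA, and neither group was tested against control. PSAT1 and MTHFD2, enzymes of serine and folate metabolism, differed by -0.73 and -0.72, and of 18 genes of that list these were the 2 called (11.1%). Of 30 cholesterol and fatty acid genes FADS1, SC5D and HSD17B7 rose and FASN, INSIG1 and SCD5 fell, 20% of the list beside 5.63% of all features. FASN, fatty acid synthase, read 13.17 and 13.16 with ncRNA-a7 siRNA, against 13.84 and 13.93 with Snai1 siRNA and 13.72 and 13.78 with control siRNA (1.64-fold lower, limma adjusted p = 0.00912). CIDEC, a lipid droplet protein, read 10.18 and 10.22 with ncRNA-a7 siRNA, against 10.71 and 10.83 with Snai1 siRNA and 7.31 and 7.21 with control siRNA. It fell by 0.57 between the knockdowns, with both far above control. Among these genes only EIF2S1 stayed called without any 1 array.

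Coenzyme Q genes held 1 call each way (16.7% of 12), COQ8A lower and its paralogue COQ8B higher (9.38 and 9.26 with ncRNA-a7 siRNA, against 8.53 and 8.67 with Snai1 siRNA and 9.19 and 9.06 with control siRNA, limma adjusted p = 0.0107). Of 25 protein phosphatase 2A genes PPP2R5A, PPP2R2A and PPP2R1B fell and 0 rose, 12% of the list beside 5.63% of all features. The list median was -0.13. PPP2R2A and PPP2R1B lost their calls with the mean of a gene's probes, where PPP2R1B differed by -0.16. Of 29 nuclear envelope and torsin genes (10.3% called) TOR1AIP2 and NEMP1 fell and TOR1A, torsin A itself, rose (10.12 and 10.16 with ncRNA-a7 siRNA, against 9.66 and 9.58 with Snai1 siRNA and 10.10 and 10.04 with control siRNA, adjusted p = 0.0329). Of 40 translation initiation genes (5% called) EIF4EBP2 fell and EIF2S1 rose, and EIF4EBP1 differed by -0.37 without passing the test (adjusted p = 0.129). Of 21 RNA interference genes (4.76% called) DICER1 fell by 0.64 (limma adjusted p = 0.0152). It read 10.33 and 10.41 with ncRNA-a7 siRNA, against 10.97 and 11.06 with Snai1 siRNA and 11.10 and 11.07 with control siRNA. With the mean of a gene's probes the DICER1 difference was -0.35 and the call was lost. Of 23 genes near SNAI1 on chromosome 20 PEDS1, the plasmanylethanolamine desaturase, was the 1 called (1.71-fold higher, adjusted p = 0.0128), 4.35% beside 5.63% of all features. Oxidative phosphorylation had 0 of 62 called by limma and 18 at an unadjusted p under 0.05, although 51 of its differences were above 0 and its median was 0.16. Of 65 ribosomal protein genes RPS23 was the 1 called, with near-identical copies that make its value uncertain, and of 36 proteasome genes PSMD2 was the 1 called (-0.88).

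The remaining lists held between 0 and 4 calls. Their shares are read beside 5.63% of all features and 927 called of 13086 named genes. Of 22 S100 proteins and annexins S100A10 and ANXA3 rose and ANXA10 and S100P fell (18.2%). S100P, a calcium-binding protein of many carcinomas, read 12.32 and 12.48 with ncRNA-a7 siRNA, against 13.16 and 13.09 with Snai1 siRNA and 12.31 and 12.14 with control siRNA (limma adjusted p = 0.0102), so the Snai1 siRNA arrays were the high ones. Of 27 p53 targets 4 rose and 0 fell (14.8%), with a median of 0.03, namely the repair factor XPC (0.55), GDF15 (0.50), ZMAT3 (0.49) and the death receptor TNFRSF10B (0.47). Of 35 genes of endoplasmic reticulum chaperones and degradation CRELD1, DNAJB9 and DERL2 rose by 0.57 to 0.60 and 0 fell (8.57% called). The calls on these genes and on the p53 targets were lost whichever array was left out. Of 33 NRF2 and detoxification genes the exporter ABCC3 (0.62) and CYP4F11 (0.47) rose and GCLM, a subunit of the glutathione enzyme, fell (-0.48), with 9.09% called. Of 37 hypoxia and glycolysis genes ADM rose (0.58) and HK2 (-0.63) and EGLN1 (-0.51) fell, with 8.11% called. Of 28 Mediator subunits MED29 (0.63) and CCNC (0.53) rose and MED30 fell (-0.78), with 10.7% called. Of 21 amino acid transporters SLC7A2 (-0.85) and SLC1A1 (-0.72) fell, with 9.52% called. Of 35 aminoacyl-tRNA synthetases RARS2 rose (0.56) and MARS2 fell (-0.53), with 5.71% called. CELF1 was the 1 called of 26 splicing regulators (3.85%) and RBBP4 the 1 called of 28 subunits of its complexes (3.57%). CIDEC and PNPLA2 fell among 22 lipid droplet genes (9.09%). Among 20 liver-type secreted genes LBP fell (-0.89) and APOH rose (0.50), with 10% called. Of the marker lists, ABCA3 rose among 6 lung markers (0.52), ESAM fell among 6 endothelial markers (-0.81), and 0 of 4 fibroblast and 0 of 8 leukocyte markers passed the test by limma, with 2 and 3 at an unadjusted p under 0.05. Over all features 4222 of 19756 had such a p.

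For 321 called genes another probe also passed the brightness filter, 422 probes in all. Of these 350 (82.9%) differed in the same direction as the representing probe and 185 did so by at least 50% of its size. Over these probes the 2 differences correlated at 0.71, as a description across probes of the same 4 arrays. Among the 22 genes called at least 2-fold, 27 of 30 other probes had the same direction. For the p53 target ZMAT3 the brightest probe differed by 0.49, against 1.59 and 1.39 on its other 2. TGM2, transglutaminase 2, was called higher on its representing probe, which differed by 0.56, against -1.19 and -0.69 on its others. ARRB1, beta-arrestin 1, differed by 0.92 on the representing probe, against -0.42, -0.47 and 0.17 on its others. Among list members and the 30 genes with the largest differences, 44 had other kept probes, and 10 of their 57 other probes had the opposite sign. They belonged to DCTN3, DICER1, H2AC18, INCENP, INSIG1, KLF4, PPP2R1B, RAB37, TGFBR2 and TOR1AIP2. TGM2, ARRB1 and ZMAT3 were singled out here after their values were seen. Directions of such genes depend on the probe, and transcript forms measured by each probe are not given in the sources used here.

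**Figure D5:**
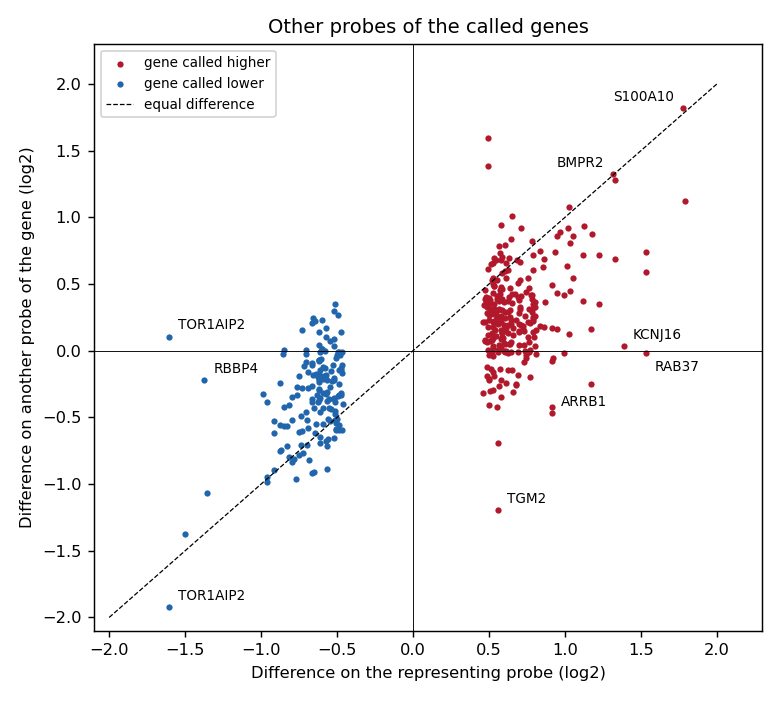
Difference between ncRNA-a7 siRNA and Snai1 siRNA on another kept probe of a called gene (log2, vertical axis) against the difference on its representing probe (log2, horizontal axis), with 1 point per other probe. Red points belong to genes called higher and blue points to genes called lower, and the dashed line marks equal differences. S100A10 and BMPR2 lie on the line, while both other probes of TGM2, 2 of the 3 of ARRB1 and 1 of TOR1AIP2 lie on the opposite side of 0.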

How the data were processed

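Gene expression was measured in A549 cells on Illumina HumanHT-12 V3 bead arrays with 1 colour. The deposited scanner table holds 1 linear signal intensity per probe and array, not normalized. The deposited series matrix holds the authors' scaled intensity values of the same arrays. Their median ratio to the scanner values was 0.783 to 1 by array. The sources used here do not give the software, slides, scan times or detection p-values, so background and batch were not assessed and the number of arrays limits the precision. Groups and replicate numbers came from the labels. Probes were named through the platform annotation (28044 with 1 symbol, 13 with several, 20644 with none), and 28005 were found in the RefSeq table of GRCh38.p14.

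Signals of the 4 arrays were corrected with limma's normexp (offset 50), quantile normalized and put on the log2 scale, so differences of dim genes are understated. Probes with a mean above the median were kept (24350), a gene was its brightest kept probe, and lmFit and eBayes (limma 3.58.1, R 4.3.3, 2 residual and 8.34 prior degrees of freedom) tested 13086 named genes and 6670 unnamed probes, with Benjamini-Hochberg adjustment over all 19756. Control arrays were set on the same quantiles for display. With 2 arrays per group an exact permutation test cannot pass 0.05, so none is given. Values after ± are standard errors of the fit.

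Named were AURKA, CDH1, VIM, SNAI1 and TRERNA1, the 15 largest rises and 15 largest falls among called genes with arrays apart and a mean in the upper 75%, and up to 3 called members of each of 51 lists with the smallest p; other list members were named after their values were seen. Members and lists were chosen with earlier results of these data known. Alternatives covered background, offset, scaling, filter, probe averaging, variance prior, the arrays fitted, a replicate block, a minimum change and leaving out each array. Same-numbered replicates did not deviate together (correlation 0.011 over features), and the labels name no shared origin.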

Additional observations from a re-analysis of the deposited data

How the results depend on the processing

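Every called gene named by rule kept its direction under each of the 17 alternatives that tested it. Of 112 such genes 14 stayed called under every alternative that tested them, and 33 when the 1.5-fold minimum is left aside. The number called (1113, with 659 higher and 454 lower) depended more on the processing. It was 1965 (1117 higher, 848 lower) with no background correction and 134 (85 and 49) with an offset of 16. Median scaling gave 537 (376 and 161) and no filter 370 (223 and 147). Probes brighter than 75% of all probes gave 2030 (1106 and 924) and a trended robust prior 2118 (1194 and 924). A replicate block gave 1842 (1069 and 773), with all 1113 called features among them, and the replicate numbers share only a number. A minimum change of 1.5-fold left 17 (10 and 7). Leaving out 1 array gave 135 to 778 called, 80 to 500 higher and 55 to 278 lower, with 1 residual degree of freedom and the lone array assumed to vary like the other group. Cyclic loess, the authors' scaled values, the mean of a gene's probes, named genes alone and all 6 arrays gave 844 to 1605. The causes were not tested, beyond the fewer features tested under the stricter filter and the fewer arrays in each left-out fit. Without detection values, it is not known whether dim probes such as those of SNAI1 and TRERNA1 read above background.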

Other observations

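Probes without a gene name were tested beside the named genes. Of 6670 such probes 186 were called, 114 higher and 72 lower with ncRNA-a7 siRNA, and 10 of them differed by at least 2-fold. The largest difference among all called features belonged to ILMN_1748303, at -1.89 on the log2 scale, and the largest rise among the unnamed probes to ILMN_1729691, at 1.52. Both are identified by probe alone, and both were singled out after their values were seen.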
